A study of Mus musculus with 2 samples.

Results

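The genes described here release calcium from the sarcoplasmic reticulum of heart muscle or hold it inside that store. There were 9 of them, chosen by name: Ryr2, Trdn, Asph, Casq2, Casq1, Jph2, Hrc, Srl and Fkbp1b. Every transcript model whose annotated gene name is 1 of these was taken, and the reads of a gene are the sum over its models. They are 9 of the 15410 annotated genes that had at least 1 read. Long-read RNA sequencing, which reads a complementary DNA molecule from end to end where it can, was carried out on heart tissue of adult male B6CASTF1/J mice aged 18 to 20 months, first-generation offspring of a C57BL/6J by CAST/EiJ cross. The study holds 1 group of 2 libraries from 2 µg of RNA each, with no treatment and no control group. The labels number the libraries as biological replicates 1 and 2 and give each its own biosample but both the same donor identifier, and nothing states whether they come from separate animals. All tests below therefore set 1 library against the other, and their p-values treat reads as independent and measure counting error between these samples only, a spread that may be technical.

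In heart muscle an electrical impulse opens calcium channels of the surface membrane, and the entering calcium opens the ryanodine receptor in the facing membrane of the sarcoplasmic reticulum. Triadin and junctin are membrane proteins that tie this channel to calsequestrin, the buffer that holds calcium in the lumen, and junctophilin holds the reticulum close to the surface membrane. Mutations of the ryanodine receptor, calsequestrin and triadin genes are known causes of inherited stress-induced arrhythmia.

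Replicate 1 held 688861 mouse reads and replicate 2 held 1003999, and a count of 0 allows up to 4.36 and 2.99 reads per 1000000 mouse reads (CPM). Each long read counts once for its molecule, so CPM values were compared between genes without dividing by length. Whether the chance that a molecule is read depends on its length was not analysed. The heart label was met by the markers: 6 cardiomyocyte genes summed to 32735 and 31114 CPM. A list of 12 fast skeletal muscle genes summed to 14 and 25 reads, with its defining genes Myh1, Myh2, Myh4, Mylpf and Actn3 at 0 in both libraries. Slow skeletal muscle genes summed to 39 and 63 reads, of which Tnnt1 held 38 and 63. Atrial genes summed to 4121 and 3144 CPM, fibroblast genes to 684 and 511 and erythroid genes to 6242 and 5715. The part of these lists in the differences between libraries below was not tested. In such bulk tissue, fewer cells of a type and less RNA per cell cannot be told apart.

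The members ranged from a mean of 3631 CPM (Hrc) down to 3.17 CPM (Casq1) and 0 and 1.99 CPM in the 2 libraries (Fkbp1b). Their summed share of mouse reads was 0.636% (replicate 1) and 0.753% (replicate 2), and Hrc alone made up 46.8% and 56.9% of these. From highest to lowest mean CPM the order was Hrc, Srl, Casq2, Trdn, Asph, Ryr2, Jph2, Casq1 and Fkbp1b, with Hrc at rank 25 and Jph2 at rank 1963 among all genes. Neighbours in this order lay apart, with both libraries of the higher gene above both of the lower, except Casq2 against Trdn and Casq1 against Fkbp1b. The order, and the share of Hrc, depend on which models are counted. Without incomplete models (classed by the authors as matching an annotated transcript in part) and genomic models, Hrc stood at 125.6 CPM, below Srl (1284), Casq2 (1063), Trdn (549) and Asph (258), while Jph2 (15.1) stood above Ryr2 (5.16). With annotated transcripts only, Hrc stood at 104.9 CPM, Srl at 283 and Casq2 at 1184.

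**Figure D1:**
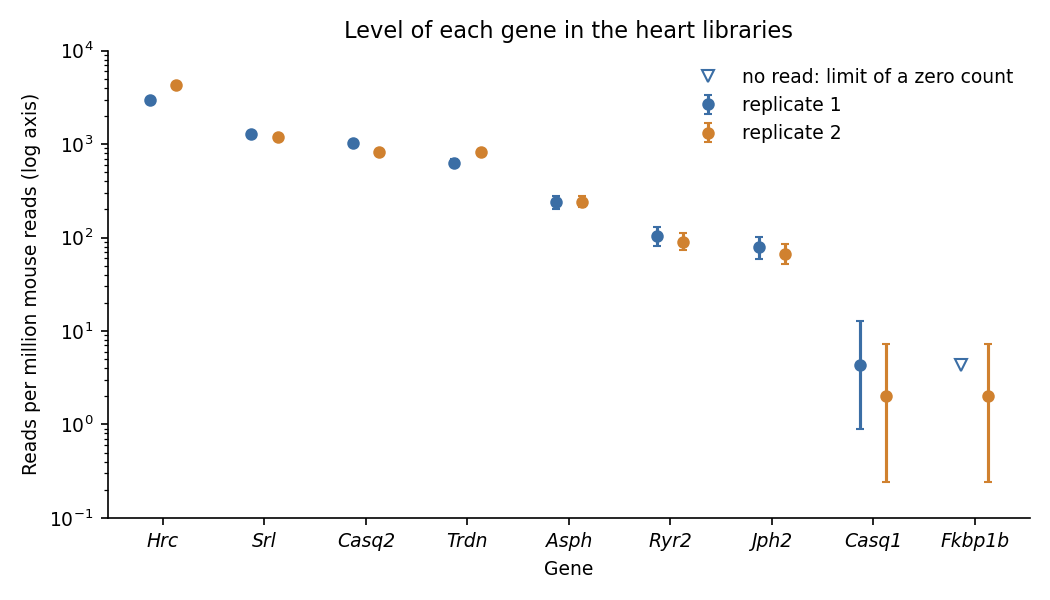
Level of each gene in CPM on a log axis, with replicate 1 in blue and replicate 2 in orange; bars are exact 95% Poisson intervals of the count, and the open triangle marks the limit that a count of 0 allows. The Hrc points sit at 2977 and 4284, and those of Casq1 at 4.36 and 1.99.

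Of the 9 genes, 7 had the 10 reads over both libraries that the comparison of libraries needed. With p-values adjusted over all 8836 genes tested (Benjamini-Hochberg), the two-sided exact binomial test called 2 members higher in replicate 2 (Hrc and Trdn) and 1 lower (Casq2), and 4 were not called. Over all genes 3.36% were called, 1.36% higher and 2% lower. This share depends on depth: with at least 50 reads needed, which the 7 members met, 338 of 4032 genes were called. Log2 ratios, replicate 2 over replicate 1 throughout, had a median of -0.13 over the 7 members and of -0.06 over all genes tested. The background split of higher and lower calls depends on scaling, at 120 higher and 177 lower by total mouse reads and 158 higher and 134 lower with edgeR TMM factors. Hrc, Trdn and Casq2 were called in the same directions under both.

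Ryr2 encodes the cardiac ryanodine receptor, the release channel itself, and lies on the minus strand of chromosome 13 from 11553102 to 12106945 (mm10). It had 71 reads in replicate 1 and 91 in replicate 2, or 103 and 90.6 CPM (96.9 ± 8.79, SD, n = 2). The log2 ratio was -0.19, with a 95% interval from -0.65 to 0.28, and did not pass the binomial test (adjusted p = 0.884). Of the Ryr2 reads, 27 in replicate 1 and 50 in replicate 2 lay on a single-exon genomic model listed with a length of 2 nt. They count in this level and ratio, in the order of members above and in the family share below.

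The annotated transcript Ryr2-201 has 105 exons and 16814 nt. No read was assigned to it or to any other annotated Ryr2 transcript, which allows a share of up to 4.23% in replicate 1 and 3.30% in replicate 2. Reads fell at its ends. The first intron was held by 11 of 71 and 18 of 91 reads and the last intron by 11 and 10, but no read held both. Exon 21 was overlapped by 28.2% and 26.4% of Ryr2 reads, exon 61 by 4.23% and 0%, and exon 105 by 53.5% and 65.9%. The model that reached farthest was 1 read of replicate 1 with 66 exons and 11618 nt, followed by 1 read of replicate 2 with 52 exons and 8616 nt. Both began at the first exon. Among spliced models, the one with most reads had 22 exons and ran from exon 1 to exon 23 of Ryr2-201 (5 and 9 reads), and the next held the last 12 exons (5 and 6 reads). The single-exon model listed with a length of 2 nt lies at the very end of the gene, and its 27 and 50 reads count towards exon 105. All single-exon genomic models of Ryr2 together held 30 and 52 reads (42.3% and 57.1%). Unannotated models of the opposite strand lay within the Ryr2 interval, with 45 and 52 reads, and a read given to the wrong strand cannot be told apart from these.

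Near its 5′ end the Ryr2 models departed from the annotation. The annotation places a different set of short exons between exon 3 and the exon at chr13:11885464-11885538 in each of 3 transcripts. These stretches are printed because the models hold none of them as annotated. Each runs 5′ to 3′ from the last 15 bases of exon 3 to the first 15 bases of the following exon, with the first short exon in capitals (GENCODE M21 transcripts, minus strand).
Ryr2-201: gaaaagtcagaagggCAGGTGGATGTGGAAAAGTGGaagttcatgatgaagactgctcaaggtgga
Ryr2-202: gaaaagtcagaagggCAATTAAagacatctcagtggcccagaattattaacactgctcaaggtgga
Ryr2-203: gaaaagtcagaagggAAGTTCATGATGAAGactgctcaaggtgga
Ryr2-201 inserts exons of 21 and 15 nt here, Ryr2-202 exons of 7 and 29 nt, and Ryr2-203 only the 15-nt exon of Ryr2-201. In the deposited models 12 of 12 reads of replicate 1 and 18 of 19 reads of replicate 2 that held both flanking exons had 1 exon of 27 nt in this place, at chr13:11903212-11903238. On the minus strand it contains the 21-nt exon of Ryr2-201 and extends it by 6 nt at the 3′ end. The remaining read joined exon 3 directly to the following exon. Like the annotated insertions of 36 nt (36 in both long transcripts), 27 nt is a multiple of 3. The 6 added bases are in no annotated transcript and were not read here, and how reads were aligned across exons this short was not analysed. Which parts of these genes to describe was decided after their models were seen, here and for the splice choices, starts and ends below, so such shares carry no test.

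Fkbp1b encodes calstabin 2, the small immunophilin that binds the cardiac ryanodine receptor, and lies on chromosome 12 from 4833174 to 4841591. It had 0 reads in replicate 1 and 2 in replicate 2 (1.99 CPM), too few for a test. One of its 2 reads matched the annotated 4-exon transcript Fkbp1b-201 of 976 nt. Its close relative Fkbp1a, calstabin 1, had 242 and 316 reads. Fkbp1b therefore made up 0 of 242 reads of the pair, which allows up to 1.24%, and 2 of 318 (0.629%, 95% Clopper-Pearson interval 0.0763% to 2.25%).

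For the channel family the share of the heart gene was large. Ryr2 held 98.6% (92.5% to 99.96%) and 95.8% (89.6% to 98.8%) of the reads of Ryr1, Ryr2 and Ryr3 together. Ryr1, the skeletal muscle channel, had 0 and 1 read, and Ryr3 had 1 and 3.

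Trdn encodes triadin, which binds both the ryanodine receptor and calsequestrin, and lies on the plus strand of chromosome 10 from 33080554 to 33476709. It had 435 reads in replicate 1 and 833 in replicate 2, or 631 and 830 CPM (731 ± 140, SD, n = 2). The level was higher in replicate 2, with a log2 ratio of 0.39 (interval 0.22 to 0.56, adjusted p = 0.000216 by the binomial test).

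Triadin transcripts are known to differ at the 3′ end, where the heart and skeletal muscle forms part, and the reads fell into separate ends. Most spliced reads ended within windows set for 3 routes that follow exon 8, at chr10:33195949-33196125. The routes are printed, since each gives triadin another tail. The last 15 bases of exon 8 are in lower case and the first 30 bases of each route, all coding, in capitals (GENCODE M21, plus strand).
Trdn-208: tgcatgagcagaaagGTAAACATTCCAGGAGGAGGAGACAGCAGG
Trdn-202: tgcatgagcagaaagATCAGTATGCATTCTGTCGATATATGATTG
Trdn-207: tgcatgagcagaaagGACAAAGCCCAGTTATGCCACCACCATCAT
Trdn-208 reads straight on past the donor of exon 8, with 831 coding bases. Trdn-202 joins a last exon, whose first bases Trdn-201 shares, at chr10:33200163-33200373, with 879 coding bases, and Trdn-207 a last exon at chr10:33233855-33233992, with 915. Reads were assigned to a route by where their model ended, and the junction after exon 8 was not required. The window of the second route opened at 33198705, the start of Trdn-204, ahead of the Trdn-202 last exon. The first window held the ends of 98 of 238 spliced reads in replicate 1 and 186 of 465 in replicate 2 (41.2% and 40%). The second held those of 113 and 224 (47.5% and 48.2%). The third held those of 5 and 27 reads (2.10%, interval 0.686% to 4.83%, and 5.81%, interval 3.86% to 8.34%).

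The long transcript Trdn-201 has 38 exons, 4514 nt and 2079 coding bases, and its end was reached by 4 and 5 spliced reads (1.68% and 1.08%). None of the Trdn reads held both its first and its last intron, which allows up to 0.690% and 0.360%. The reads that reached the far end belonged to models that began downstream of the Trdn-207 end. Such models held 12 and 16 reads, with up to 29 exons. The known Trdn transcripts with most reads were the unspliced Trdn-204 at chr10:33198705-33200369 (147 and 283 reads, 33.8% and 34% of the gene), Trdn-208 (72 and 120) and Trdn-202 (37 and 58).

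Many Trdn reads were placed on models that begin at exon 6 of Trdn-202. These took 93 of 238 spliced reads (39.1%, interval 32.8% to 45.6%) in replicate 1 and 222 of 465 (47.7%, 43.1% to 52.4%) in replicate 2. The most abundant of them was a 4-exon model with 68 and 146 reads. The first intron was held by 53.8% and 43% of spliced reads. Among other unspliced Trdn reads, incomplete models held 36 and 5 and genomic models 14 and 80. Within the Trdn interval, unannotated models of the opposite strand held 23 and 35 reads, D830005E20Rik 2 and 8, Gm47844 1 and 0, and Gm47845, on the same strand, 0 and 2.

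Asph yields the calcium-binding membrane proteins junctin and junctate and, from longer transcripts, the aspartate beta-hydroxylase. It lies on the minus strand of chromosome 4 from 9448069 to 9669344. It had 164 reads in replicate 1 and 244 in replicate 2, or 238 and 243 CPM (241 ± 3.50, SD, n = 2). The log2 ratio was 0.03 with an interval from -0.26 to 0.32, and the gene was not called (adjusted p = 1).

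Asph reads separated by their first exon. The sequences below show why the start matters: each start brings its own first coding exon (capitals, the last 30 or all 16 coding bases) to a shared exon 2 (lower case). They run 5′ to 3′ on the minus strand (GENCODE M21).
Asph-202: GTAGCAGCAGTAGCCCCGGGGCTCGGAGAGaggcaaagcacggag
Asph-206: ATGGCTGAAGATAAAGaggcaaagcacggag
The downstream first exon at chr4:9643535-9643717, that of Asph-206, began 138 of 153 spliced reads in replicate 1 (90.2%, interval 84.3% to 94.4%) and 184 of 217 in replicate 2 (84.8%, 79.3% to 89.3%). The upstream first exon of Asph-202 began 11 and 26 reads (7.19% and 12%).

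At the 3′ end, 103 and 152 spliced Asph reads (67.3% and 70%) stopped in the last exon of Asph-206, a 5-exon transcript with 621 coding bases. A further 42 and 59 (27.5% and 27.2%) ended with the 14-exon Asph-208, which has 816 coding bases. The hydroxylase end of Asph-202, with 24 exons and 2223 coding bases, was reached by 6 and 3 spliced reads (3.92% and 1.38%). Asph-206 alone held 53% and 51.6% of the gene's reads and Asph-208 held 14.6% and 8.61%. The new spliced Asph model with most reads had 15 exons and 6 and 10 reads. Single-exon genomic models held 10 and 18 Asph reads (6.10% and 7.38%). Clvs1, a gene on the opposite strand that overlaps Asph, had 4 reads in each library.

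**Figure D2:**
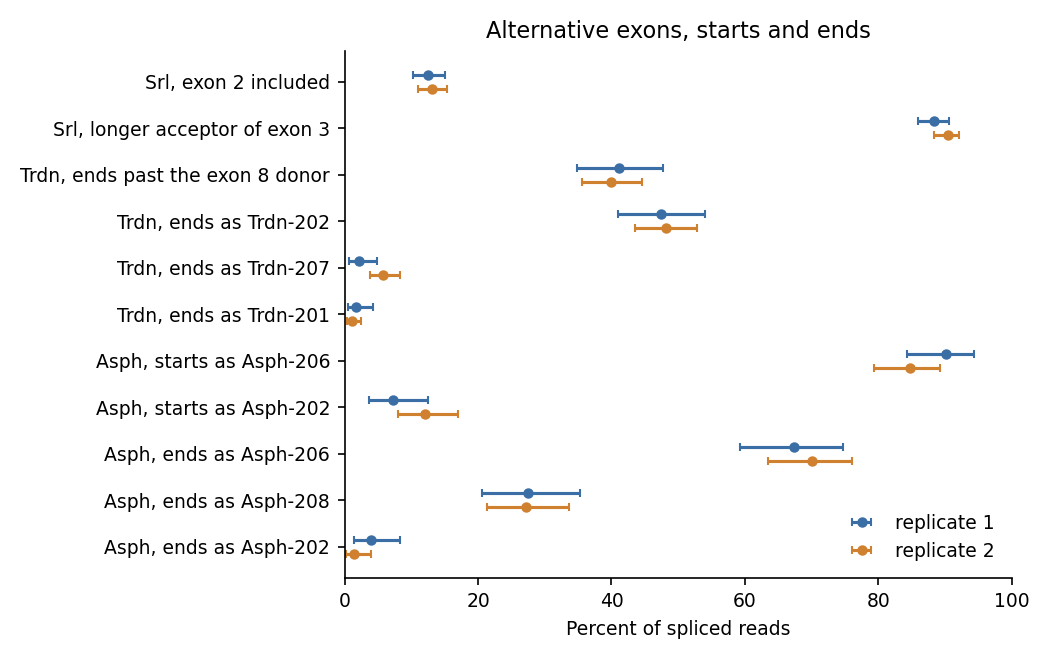
Share of spliced reads of Srl, Trdn and Asph by exon, acceptor, start or end, in percent, with 95% Clopper-Pearson intervals; blue is replicate 1 and orange replicate 2. The intervals of the 2 libraries overlap at each feature, including the Trdn-207 end (2.10% and 5.81%).

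Jph2 encodes junctophilin 2, which anchors the reticulum to the surface membrane, and lies on the minus strand of chromosome 2 from 163336242 to 163397993. It had 54 reads in replicate 1 and 67 in replicate 2, or 78.4 and 66.7 CPM (72.6 ± 8.24, SD, n = 2). The log2 ratio was -0.23, with an interval from -0.77 to 0.31 (adjusted p = 0.876). The full 6-exon transcript Jph2-201 of 4211 nt held 9 and 10 reads. Shorter new models of the last 3 and the last 5 exons held 3 and 4 and 3 and 3 reads. All 54 Jph2 reads of replicate 1 and 66 of 67 in replicate 2 overlapped the last exon, and 34 and 49 had no splice junction. Among junctophilins, Jph2 took 91.5% and 91.8% of reads. Jph1 had 5 and 6 reads, while Jph3 and Jph4 had none.

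Casq2 encodes cardiac calsequestrin, the main calcium buffer of the lumen, and lies on the plus strand of chromosome 3 from 102086415 to 102146514. It had 716 reads in replicate 1 and 832 in replicate 2, or 1039 and 829 CPM (934 ± 149, SD, n = 2). The level was lower in replicate 2, with a log2 ratio of -0.33 (interval -0.47 to -0.18, adjusted p = 0.000599 by the binomial test). Casq2 was read mostly from end to end: the annotated 11-exon transcript Casq2-201 of 2556 nt held 647 and 741 reads (90.4% and 89.1%). Single-exon genomic models held a further 40 and 51 (5.59% and 6.13%), and the overlapping names 4632404M16Rik and Gm43244 had 2 reads and 1 read, both in replicate 2.

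Casq1, the skeletal muscle calsequestrin on chromosome 1 from 172209894 to 172219868, had 3 and 2 reads. Casq2 thus held 99.6% (98.8% to 99.9%) and 99.8% (99.1% to 99.97%) of the reads of the pair. Of the Casq1 reads, 2 and 1 were on the 11-exon Casq1-201. The other read of each library was on a new 12-exon model that splits the first exon.

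The 250 bases before the RefSeq start of each calsequestrin gene (GRCm38.p6) are printed because nearly all reads of the pair came from 1 of them. Capitals mark matches to CANNTG, the E-box bound by myogenic factors, and to the MEF2 box, the A and T rich site of MEF2 factors.
Casq2 at chr3:102086165-102086414: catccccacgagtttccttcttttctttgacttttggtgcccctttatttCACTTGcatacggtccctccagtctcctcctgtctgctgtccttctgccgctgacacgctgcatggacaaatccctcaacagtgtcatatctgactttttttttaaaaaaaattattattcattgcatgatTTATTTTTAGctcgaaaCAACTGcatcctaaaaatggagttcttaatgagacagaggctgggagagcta
Casq1 at chr1:172219896-172220145: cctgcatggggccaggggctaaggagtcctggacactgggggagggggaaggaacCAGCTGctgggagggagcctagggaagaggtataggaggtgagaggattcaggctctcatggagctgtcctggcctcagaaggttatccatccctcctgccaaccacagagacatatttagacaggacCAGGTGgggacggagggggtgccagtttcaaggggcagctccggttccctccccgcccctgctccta
The Casq2 window has 2 CANNTG matches and 1 MEF2 box match that begins 69 bases before the start, and the Casq1 window has 2 CANNTG matches and no MEF2 box match. Both motifs read alike on both strands, and no match overlaps another. Over 32851 windows, each of 250 bases before a RefSeq start, 66.2% held CANNTG and 2.92% held a MEF2 box. The table lists 6 of the members, of which 5 had CANNTG and 1 a MEF2 box. None of the 6 had TATAAA, found in 12.4% of all windows with both strands searched. The GATA motif AGATAA, on either strand, and the CArG box had no match in them either, against 9.99% and 1.47% of all windows. A match is a description of the letters and not of binding.

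A few Casq2 reads began elsewhere. Models with a first exon that ends at 102082348 or 102082352, 4067 or 4063 bases before the annotated start, were joined directly to exon 2. They held 7 of the 661 reads spliced into exon 2 in replicate 1 and 14 of 760 in replicate 2 (1.06%, interval 0.427% to 2.17%, and 1.84%, 1.01% to 3.07%). These models lack exon 1, which holds 234 of the 1245 coding bases of Casq2-201. Another annotated coding form, Casq2-205, holds a 9-nt exon 8 at chr3:102133090-102133098. It was in 0 of 667 and 0 of 772 reads that held both neighbouring exons, which allows up to 0.450% and 0.389%.

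Hrc encodes the histidine-rich calcium-binding protein of the lumen and lies on the plus strand of chromosome 7 from 45335290 to 45338974. It had 2051 reads in replicate 1 and 4301 in replicate 2, or 2977 and 4284 CPM (3631 ± 924, SD, n = 2). The level was 1.44-fold higher in replicate 2, with a log2 ratio of 0.52 (interval 0.45 to 0.60, adjusted p = 3.09e-40 by the binomial test).

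Few of these reads covered the gene. The annotated transcript Hrc-201 has 6 exons and 2411 nt, of which exons 1 and 2 make up 2156. Exon 1 was overlapped by 62 of 2051 reads (3.02%) in replicate 1 and by 84 of 4301 (1.95%) in replicate 2, although it holds 1948 of the 2214 coding bases. The model with most reads was made of the last 4 exons and had only 255 nt. It took 1885 reads (91.9%) and 4028 reads (93.7%). Its ends coincide with annotated exon boundaries, and the ends of single reads were not analysed here. The model of the last 3 exons, with 186 nt, held 76 and 143 reads, and Hrc-201 itself held 55 and 69. Models under 300 nt other than those of Hrc took 4.62% and 5.18% of the reads of annotated genes. Those of them classed as incomplete, like the 255-nt Hrc model, took 2.05% and 1.95%.

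The 195 coding bases within the 255-nt Hrc model, exons 3 and 5 in capitals and exons 4 and 6 in lower case, show what most Hrc reads represent. They run from chr7:45337887 to chr7:45338914 on the plus strand (GENCODE M21).
Hrc exons 3 to 6: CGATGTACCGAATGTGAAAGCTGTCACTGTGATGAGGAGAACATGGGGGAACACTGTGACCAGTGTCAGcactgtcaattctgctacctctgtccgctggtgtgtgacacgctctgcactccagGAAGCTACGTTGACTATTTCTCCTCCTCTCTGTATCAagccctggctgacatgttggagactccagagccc

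**Figure D3:**
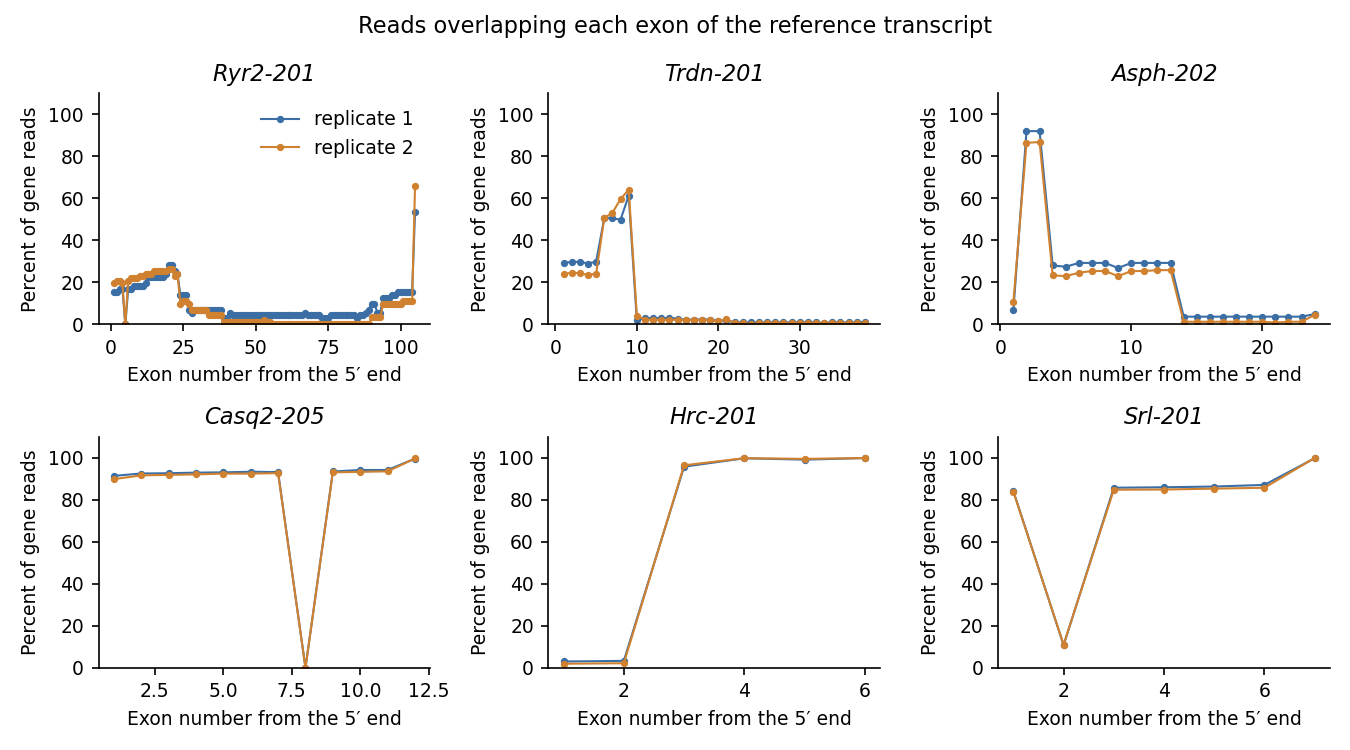
Percent of the reads of a gene that overlap each exon of its coding transcript with most introns, by exon number from the 5′ end, for replicate 1 (blue) and replicate 2 (orange). Hrc rises from 3.02% and 1.95% at exon 1 to above 95% at exon 3, Srl drops at exon 2, Casq2 has no read at exon 8, and Ryr2 is lowest in its middle apart from exon 5, which no read overlaps.

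Srl encodes sarcalumenin, a luminal glycoprotein that binds calcium and associates with the calcium pump, and lies on the minus strand of chromosome 16 from 4480216 to 4541816. It had 889 reads in replicate 1 and 1184 in replicate 2, or 1291 and 1179 CPM (1235 ± 78.7, SD, n = 2). The log2 ratio was -0.13 (interval -0.26 to -0.00, adjusted p = 0.391) and the gene was not called.

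Most Srl reads combined 2 annotated choices in a way that neither annotated coding transcript, Srl-201 or Srl-202, does. The noncoding Srl-203, of 2 exons and 349 nt from 4493603 to 4523063, also skips exon 2. Its acceptor was not compared here. If its first exon ends at the donor used by Srl-202, its length places its acceptor at that of Srl-201. The combination may therefore already be annotated in Srl-203. The coding exon 2 of Srl-201, of 1311 nt at chr16:4496405-4497715, is absent from Srl-202. The next exon starts 3 bases earlier in Srl-201 than in Srl-202. The sequences across this junction are printed for these 2 coding transcripts and for the new 6-exon model, with the 3 extra bases in capitals. They run 5′ to 3′ on the minus strand, and the junction of the new model is assembled from the exon sequences of the annotated transcripts (GENCODE M21).
Srl-201: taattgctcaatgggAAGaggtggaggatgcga
Srl-202: tttcaggacaagcagaggtggaggatgcga
New Srl model: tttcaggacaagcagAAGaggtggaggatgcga
The new model skips exon 2 like Srl-202 and keeps the 3 bases AAG like Srl-201. It held 582 of 889 reads (65.5%) and 772 of 1184 (65.2%), against 71 and 107 for Srl-201 and 75 and 83 for Srl-202. Its listed length was 6926 nt in replicate 1 and 7647 nt in replicate 2, against 3698 nt for Srl-202, and new models take their ends from their own library. Single-exon genomic models held 113 and 167 reads (12.7% and 14.1%), all within the last exon region from 4480216 to 4482621.

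Counted choice by choice, exon 2 was included in 95 of 759 Srl reads spliced into the third exon in replicate 1 (12.5%, interval 10.2% to 15.1%) and in 130 of 997 in replicate 2 (13%, 11% to 15.3%). The longer acceptor was used by 671 and 901 of these reads (88.4% and 90.4%). It was used by 86.3% (77.7% to 92.5%) and 90.8% (84.4% to 95.1%) of reads that included exon 2, and 88.7% (86% to 91%) and 90.3% (88.1% to 92.2%) of those that skipped it, with overlapping intervals. The combination that skips exon 2 and uses the longer acceptor would encode 1419 bases, against 1416 in Srl-202 and 2730 in Srl-201, if start and stop codons stay the same. An unannotated 36-nt exon at chr16:4489807-4489842 was held by 4 and 12 reads (0.527% and 1.20%). The 36, 1311 and 3 bases are all multiples of 3.

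For the 3 called members, reads were divided by whether they hold the first intron of the gene. Reads of Hrc that held the first intron numbered 61 and 82, with a log2 ratio of -0.12 (-0.61 to 0.39), while the spliced reads without it numbered 1987 and 4217, at 0.54 (0.46 to 0.62). For Trdn the reads with the first intron numbered 128 and 200, at 0.10 (-0.23 to 0.43), and the spliced reads without it 110 and 265, at 0.73 (0.40 to 1.06). The unspliced Trdn reads lay between, at 0.36 (0.10 to 0.62). For Casq2 the reads with the first intron numbered 654 and 745, at -0.36 (-0.51 to -0.20). The 22 and 36 spliced Casq2 reads without it gave 0.17 (-0.64 to 1.00), and the 40 and 51 unspliced reads -0.19 (-0.82 to 0.44). Differences between these read groups were described and not tested. Over all annotated genes single-exon models took 13.2% and 16.4% of reads and incomplete models 12.6% and 14.9%. The part of these shares in the Hrc and Trdn differences was not tested.

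**Figure D4:**
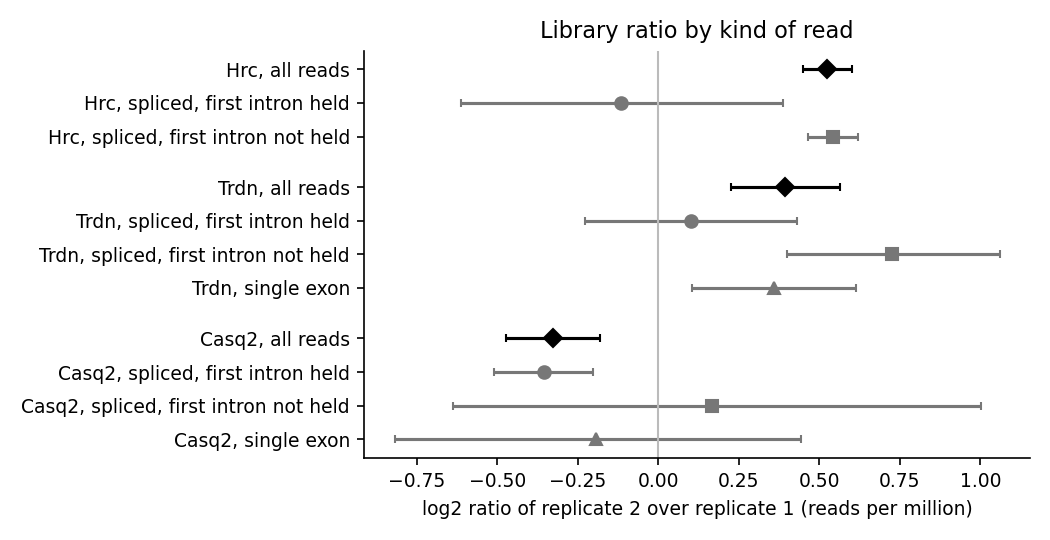
Log2 ratio of replicate 2 over replicate 1 in CPM for Hrc, Trdn and Casq2, for all reads (black diamonds) and by kind of read (grey), with 95% intervals from counting error. Hrc reads that hold the first intron lie at -0.12 and those without it at 0.54.

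Counting only reads on annotated transcripts changed the picture for Hrc. Its 55 and 69 such reads gave a log2 ratio of -0.16 (-0.69 to 0.38), with the gene no longer called, while Trdn stayed higher at 0.37 and Casq2 lower at -0.28. Of the 256 and 461 Trdn reads kept, 147 and 283 lay on the unspliced Trdn-204, which is annotated as a retained intron. The remaining Trdn reads were not tested on their own. Without incomplete and genomic models, Trdn stood at 0.29 and was not called (adjusted p = 0.137). Both alternatives were scaled by the mouse reads on the models kept, and not by all mouse reads. With all reads counted but scaled by reads on annotated transcripts, the ratios were 0.59 for Hrc, 0.45 for Trdn and -0.27 for Casq2.

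Members differed widely in the class that the authors' models gave their reads. Reads on annotated transcripts made up 90.4% and 89.3% for Casq2, 71.3% and 69.3% for Asph, 58.9% and 55.3% for Trdn, 16.4% and 16% for Srl, 16.7% and 14.9% for Jph2, 2.68% and 1.60% for Hrc and 0% in both libraries for Ryr2. Incomplete models took 96.3% and 97.7% of Hrc reads and 53.5% and 38.5% of Ryr2 reads. The class is given as deposited: it holds the 22-exon Ryr2 model, whose 27-nt exon is in no annotated Ryr2 transcript, and also unspliced models.

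**Figure D5:**
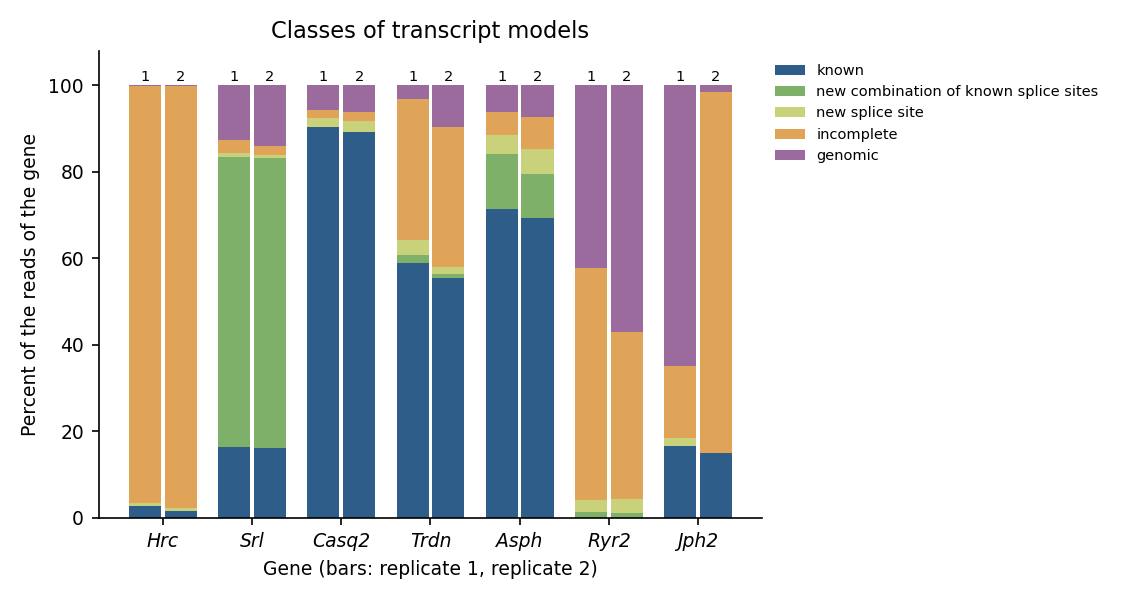
Percent of the reads of each gene by class of transcript model, with replicate 1 as the left and replicate 2 as the right bar of each pair. Casq2 is mostly known, Srl mostly a new combination of known splice sites, Hrc mostly incomplete, and Jph2 changes between genomic and incomplete.

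Use of models was compared between libraries by Fisher's exact test for the 4087 genes that had 20 or more reads in both libraries, with Benjamini-Hochberg adjustment over them. For the share of the top model 1 of 7 members was called, Jph2, against 1.96% of all genes tested. For the share of incomplete models 1 of 7 was called, again Jph2, against 4.38% of all genes. The Jph2 incomplete share was 16.7% (9 of 54) and 83.6% (56 of 67), with an adjusted p of 6.51e-12. Its unspliced reads over the last exon were classed as genomic in replicate 1 (34 reads) and as incomplete in replicate 2 (48 reads). With both classes counted as 1, the Jph2 shares were 81.5% and 85.1% (adjusted p = 1) and no member was called. No other member passed either test, and the top model of Srl, for example, held 65.5% and 65.2%.

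Of 41 companion genes of the same system, 40 were in the annotation, 38 had reads and 30 could be tested between libraries. Of these 30, 1 was called higher and 0 lower, beside 1.36% higher and 2% lower over all genes tested. The median log2 ratio was -0.01 beside -0.06 for all genes tested. The called gene was Pln, phospholamban, the inhibitor of the calcium pump, with 6455 and 12724 reads (log2 ratio 0.44, adjusted p = 9.31e-86 by the binomial test). The following genes, from the 6 highest, were not called. Atp2a2, the calcium pump SERCA2, stood at 5953 and 5867 CPM, and S100a1, a calcium sensor that binds the ryanodine receptor, at 1038 and 1192. Tmem38a, the counter-ion channel TRIC-A, stood at 733 and 660, and Prkaca, the protein kinase A catalytic subunit, at 621 and 505 CPM. Differences in paralog shares of the 4 families between libraries gave adjusted p-values of 0.890 or more by Fisher's exact test.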

How the data were processed

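The authors deposited whole-number read counts per transcript model for each library, not normalized, with an annotation of all models, per the file headers. Known models are those of GENCODE M21 on mm10, per the deposited text descriptions, and new models carry TALON as their source, per the annotation's own column. No aligner, read filter or version is given in the sources used here. Reads over overlapping or antisense genes may be split between names. Model class and ends are the authors', and short single-exon reads of 1 gene could be classed differently in the libraries. Spike-in reads (ERCC) were left out of totals, and the SIRV spike-ins of the labels were not analysed here.

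Counts were summed per gene over all models and divided by mouse reads to give CPM. Alternatives that keep fewer models were divided by the mouse reads on those models. Known models were matched between libraries by identifier, new spliced models by chromosome, strand and intron chain, and new single-exon models by gene and class. With 1 group no contrast between conditions existed. Genes with at least 10 reads over both libraries were tested by an exact two-sided binomial test, and model shares by Fisher's exact test (at least 20 reads in each library), both adjusted by Benjamini-Hochberg over all genes tested at a threshold of 0.05. Intervals are 95% exact intervals, a count of 0 is given the limit of 3 counts, and both cover counting error only. TMM factors (edgeR 4.0.16) were 1.02 and 0.984, and DESeq2 1.42.0 size factors were a second alternative. Python 3.11.15, scipy 1.17.1, pandas 2.3.3 and R 4.3.3 were used. On data simulated for replicate 2 against replicate 1 (8451 genes, counting noise only) 50% of genes raised 2-fold, 31.1% of genes lowered 2-fold and 0.0363% of unchanged genes were called by the binomial test.

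The members, lists and tests were chosen with earlier results of these data known. Named were all 9 members, member models with at least 5 reads over both libraries and 5% of the gene in either, the new spliced model with most reads, overlapping genes with reads, and of the companion list the called genes, the 6 highest and the paralogs of members. Events within genes were chosen after their reads were seen. One item that the rule names is not reported here. The companion name Strit1 matched no annotated symbol. Sequences come from the GENCODE M21 transcripts and, for 6 members, a RefSeq promoter table (GRCm38.p6).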

Additional observations from a re-analysis of the deposited data

How the results depend on the processing

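The count of 3 called members was unchanged with TMM factors, DESeq2 size factors, scaling by reads on known models, either count minimum, thinning of replicate 2 and pooling of overlapping names. With annotated transcripts only it was 2, and without incomplete and genomic models 1, since the Hrc ratio of 0.52 turned to -0.16 and -0.037 and, in the second case, Trdn at 0.29 was no longer called. Hrc then keeps few reads, since most lie on incomplete models. Both alternatives were scaled by the mouse reads on the models kept. The companion count of 1 rose to 2 with TMM factors, DESeq2 size factors, scaling by known models and thinning, and to 3 with at least 50 reads. The top model count of 1 fell to 0 without incomplete and genomic models, and the incomplete share count of 1 fell to 0 with genomic models left out. In both, Jph2 fell below the minimum of 20 reads and was not tested, so these 2 counts say nothing about its call. Pooling the single-exon classes, or counting both classes as 1, also gave 0. These last 2 alternatives were chosen after seeing the data. The cause of the other changes was not tested.

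Leaving out either replicate gave the level in the other, from 2977 to 4284 CPM for Hrc and from 631 to 830 CPM for Trdn. No paired analysis was possible because the series holds 1 group. Depth limits Casq1 and Fkbp1b, with 5 and 2 reads in all, and the first and last introns of Ryr2 and the far end of Trdn, each held by fewer than 20 reads in a library.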
